A study of Mus musculus with 8 samples.

Results

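The transcripts of 9 chemokine ligands were followed in mouse regulatory T (Treg) cells: Ccl1, Ccl3, Ccl4, Ccl5, Ccl20, Ccl22, Xcl1, Cxcl2 and Cxcl10. They were chosen by gene symbol, 9 of the 55665 genes in the deposited tables, and all 9 passed the filter on low counts, 6 of them only through the stimulated libraries. RNA was sequenced from natural Treg cells (nTreg, CD4+GFP+), which were sorted from spleen and lymph nodes of RosaCas9/+ Foxp3gfp mice and then cultured ex vivo. Every group therefore carried Cas9 and the green fluorescent Foxp3 reporter. The cells had either a control guide RNA (sgNC) or a guide against Foxp3 (sgFoxp3), the transcription factor that specifies Treg cells. Each guide was sampled after mock treatment with buffer (Mock, DPBS; 0 h) and after restimulation of the T cell receptor (TCR) with anti-CD3 and anti-CD28 antibodies (3 h). There were 8 libraries, 2 for each of the 4 groups. The labels do not say whether the 2 libraries of a group came from separate mice or cultures, so the p-values measure only the spread between libraries, which may be technical. How the guides were delivered, and what share of cells was edited, is not given in the sources used here.

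Chemokines are small secreted proteins that steer migrating leukocytes through receptors coupled to G proteins, and their names (CC, CXC, XC) follow the spacing of the cysteines near the amino end. Activated T cells are a known source of several of them, among them Ccl3, Ccl4, Ccl5 and Xcl1. Many chemokine promoters carry sites for NF-kappaB, NFAT and AP-1, factors that act downstream of the TCR, while Cxcl10 is a classical interferon-induced gene.

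The promoters of the ligands were read for the letters of such sites. The RefSeq promoter table on GRCm38.p6 held 7 of the 9 ligands, and Ccl4 and Ccl5 are named only. The 250 bases before the transcription start are printed for the ligands with a match, 5′ to 3′ on the strand of the gene, with matches in capitals. These are Ccl1 (chr11:82179813-82180062, minus strand), Ccl20 (chr1:83116516-83116765, plus strand), Ccl3 (chr11:83649379-83649628, minus strand), Cxcl2 (chr5:90903649-90903898, plus strand) and Cxcl10 (chr5:92348890-92349139, minus strand). Ccl1 and Ccl20 had the largest rises with the Foxp3 guide at 3 h, Cxcl10 the largest fall, and Ccl3 and Cxcl2 lay between.
Ccl1: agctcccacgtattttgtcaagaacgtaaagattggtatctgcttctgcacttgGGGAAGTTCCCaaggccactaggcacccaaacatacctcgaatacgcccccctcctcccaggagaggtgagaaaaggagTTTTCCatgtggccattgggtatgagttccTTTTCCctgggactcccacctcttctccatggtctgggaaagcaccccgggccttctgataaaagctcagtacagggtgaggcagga
Ccl20: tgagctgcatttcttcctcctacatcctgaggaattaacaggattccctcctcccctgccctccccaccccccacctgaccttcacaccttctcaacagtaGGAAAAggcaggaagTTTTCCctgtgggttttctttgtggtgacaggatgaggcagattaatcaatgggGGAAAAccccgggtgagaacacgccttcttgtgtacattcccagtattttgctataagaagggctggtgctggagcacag
Ccl3: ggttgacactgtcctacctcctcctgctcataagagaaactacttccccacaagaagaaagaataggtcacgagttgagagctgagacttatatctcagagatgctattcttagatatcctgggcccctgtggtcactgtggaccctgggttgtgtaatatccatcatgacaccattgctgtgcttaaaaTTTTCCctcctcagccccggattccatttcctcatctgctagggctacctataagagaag
Cxcl2: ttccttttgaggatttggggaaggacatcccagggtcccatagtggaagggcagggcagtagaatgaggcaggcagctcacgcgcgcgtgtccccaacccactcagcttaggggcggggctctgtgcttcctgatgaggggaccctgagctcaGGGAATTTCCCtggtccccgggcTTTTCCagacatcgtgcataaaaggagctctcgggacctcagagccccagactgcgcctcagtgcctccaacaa
Cxcl10: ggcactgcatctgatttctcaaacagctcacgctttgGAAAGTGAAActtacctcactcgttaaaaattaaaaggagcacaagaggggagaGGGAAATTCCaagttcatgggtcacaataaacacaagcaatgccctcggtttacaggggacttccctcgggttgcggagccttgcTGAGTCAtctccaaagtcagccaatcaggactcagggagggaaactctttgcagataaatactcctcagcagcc

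The kappaB letters, GGGA and TTCC with any 2 bases between them, were searched on both strands and were found in 3 of the 7 windows (Ccl1, Cxcl2 and Cxcl10) and in 1.21% of 32851 RefSeq promoter windows of the same length. In Ccl1 and Cxcl2 the match reads on both strands, shifted by a base, so the pair of matches overlap. The Ccl1 match starts at -196 on the plus strand, counting the base before the start as -1, the Cxcl2 match at -97 and the Cxcl10 match at -159. The NFAT core GGAAAA, also searched on both strands, was present in 4 of 7 windows (Ccl1, Ccl3, Ccl20 and Cxcl2) and in 20.4% of all windows. On the plus strand alone it was in 1 of the 7, Ccl20, and in 10.9% of all windows. Ccl20 held 3 of these cores and no other searched match. The AP-1 letters TGANTCA (6.75% of all windows) and the interferon response element, a pair of GAAA with any 2 bases between them (2.98%), both searched on both strands, each occurred in Cxcl10 alone of the 7, at -74 and -213. The letters TATAAA, searched on the plus strand (7.59% of all windows), were in none of the 7, and the windows of Ccl22 and Xcl1 held none of the searched letters. A match of letters describes the sequence, and factor binding was not measured here.

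The ligands lie in a few clusters of the genome (GENCODE M21, GRCm38). Ccl3 (ENSMUSG00000000982.5, chr11:83647844-83649355) and Ccl4 (ENSMUSG00000018930.3, chr11:83662584-83664683) are adjacent genes 13.2 kb apart, on opposite strands. Ccl5 (ENSMUSG00000035042.2, chr11:83525778-83530518) lies 117.3 kb from Ccl3. Ccl1 (ENSMUSG00000020702.13) is annotated at chr11:82176657-82305690, a span of 129034 bases that reaches far beyond the RefSeq start used for its promoter. Cxcl2 (ENSMUSG00000058427.10, chr5:90903871-90905938) and Cxcl10 (ENSMUSG00000034855.13, chr5:92346638-92348889) share a chromosome 1440.7 kb apart. Ccl20 (ENSMUSG00000026166.14, chr1:83116766-83119167), Xcl1 (ENSMUSG00000026573.7, chr1:164931644-164935527) and Ccl22 (ENSMUSG00000031779.3, chr8:94745590-94751699) stand apart from the others. Cxcl10 lies within the span of Art3, which had 5 counts in each control-guide library at 0 h; the strand setting of the counting is not given in the sources used here.

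Library totals ran from 38729009 to 48626432 expected counts with the control guide and from 55865290 to 94807362 with the Foxp3 guide. Levels are given as CPM, counts scaled to the TMM-corrected library size, which compare 1 gene between libraries, or as the authors' TPM, which are also corrected for transcript length and so allow comparison between genes. Foxp3 checked the guide: it fell by 3.13 on the log2 scale at 0 h (SE 0.0434) and by 3.19 at 3 h, and 3729 to 6257 counts per library remained. Changes reached far across the transcriptome, with 63.3% of 16642 tested genes called between the guides at 0 h. The calls were evenly split in direction (54% higher at 0 h and 49.9% at 3 h), but not on log2(TPM+1), where 27.9% and 27.4% were higher and the median of all genes was -0.15 and -0.12. In bulk RNA, fewer cells of a type and less RNA per cell cannot be told apart.

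Before stimulation 6 of the 9 ligands had at most 16 counts in any library, and after 3 h of TCR stimulation all 9 were higher with either guide. Ccl1, Ccl3, Ccl4, Xcl1 and Cxcl2 went from at most 16 counts per library at 0 h to at least 3206 at 3 h. With the control guide, all 9 passed the test upward in edgeR's quasi-likelihood test (Benjamini-Hochberg adjusted p below 0.05), 8 of them by at least 2-fold. Ccl1, Ccl3, Ccl4, Ccl22, Xcl1 and Cxcl2 were tested because they are high at 3 h, so their direction was fixed by the filter and the count of 9 supports nothing by itself. Of all tested genes, 81.8% were called in this comparison, 40.9% in each direction; with the 2-fold minimum 46% were called, 21.8% higher and 24.2% lower. With the Foxp3 guide all 9 rose, each by at least 2-fold, where 85.4% of all genes were called, 40.8% higher and 44.5% lower. By at least 2-fold 51% of all genes were called there, 22.6% higher and 28.4% lower.

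**Figure D1:**
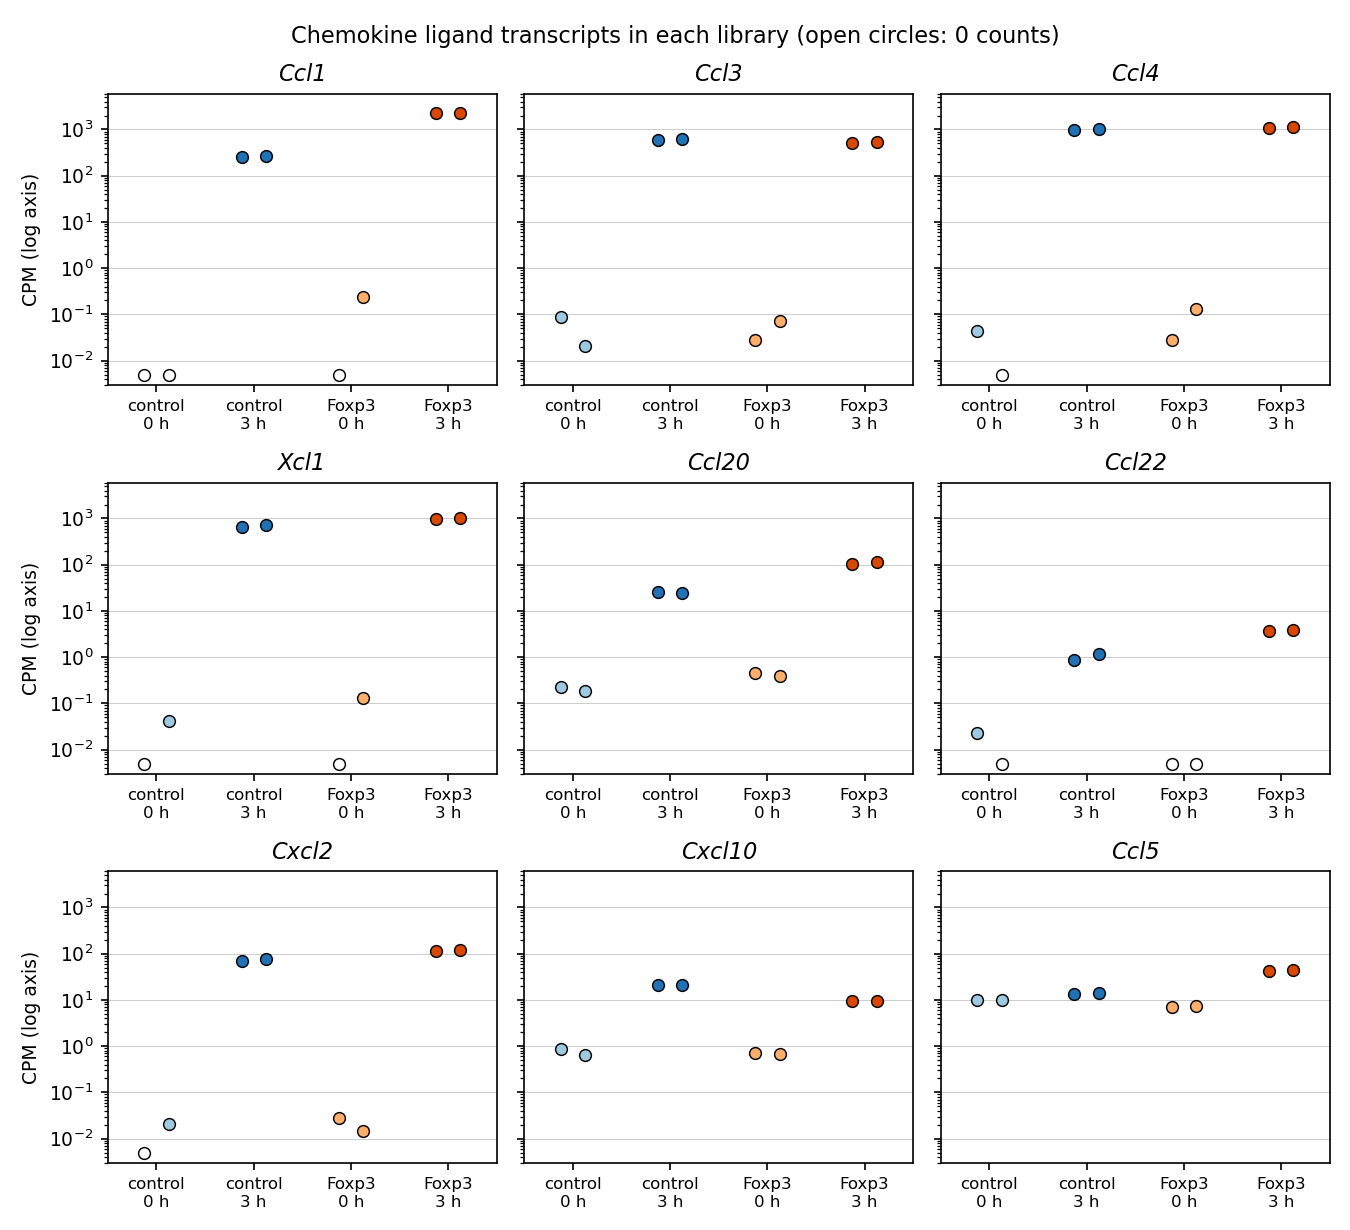
CPM of the 9 ligands on a log axis in each of the 8 libraries, by guide (control or Foxp3) and time (0 h or 3 h); each circle is 1 library and open circles at the lower edge mark 0 counts. Ccl5 is the ligand with about the same level at 0 h and 3 h in the control-guide libraries, and Ccl1 shows the widest gap between the guides at 3 h.

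The Foxp3 guide changed the stimulated level of most ligands, and in both directions. At 3 h 6 of 9 were higher (Ccl1, Ccl20, Ccl22, Ccl5, Cxcl2 and Xcl1), 2 were lower (Cxcl10 and Ccl3) and Ccl4 did not pass. That is set against 61.5% of all tested genes called at 3 h, with 30.7% higher and 30.8% lower. By at least 2-fold, 4 were higher and 1 was lower, against 16.6% of all genes called in this way, 7.71% higher and 8.88% lower. In CPM both Foxp3-guide libraries lay outside the control-guide range for all 9 ligands at 3 h, while in TPM the libraries of Ccl4 overlapped. In CPM the same held for 10 of the 11 other chemokine ligands tested and for 8 of 8 receptors tested. The share of all tested genes lying apart in this way was not counted, so the 9 is a description only. The median log2 change was 0.66, and -0.01 over all tested genes. At 0 h, where 63.3% of all genes were called (34.2% higher, 29.1% lower), 1 of the 9 was higher (Ccl20) and 1 lower (Ccl5), and 7 did not pass. Ccl20 was also the only one to reach 2-fold, which 15.5% of all genes did (9.21% higher, 6.33% lower). The fitted median of the 9 at 0 h was 0.88, that of Cxcl2 at 3 against 1 counts, and 0.007 on log2(TPM+1), against 0.02 for all genes, and no direction is read from it.

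**Figure D2:**
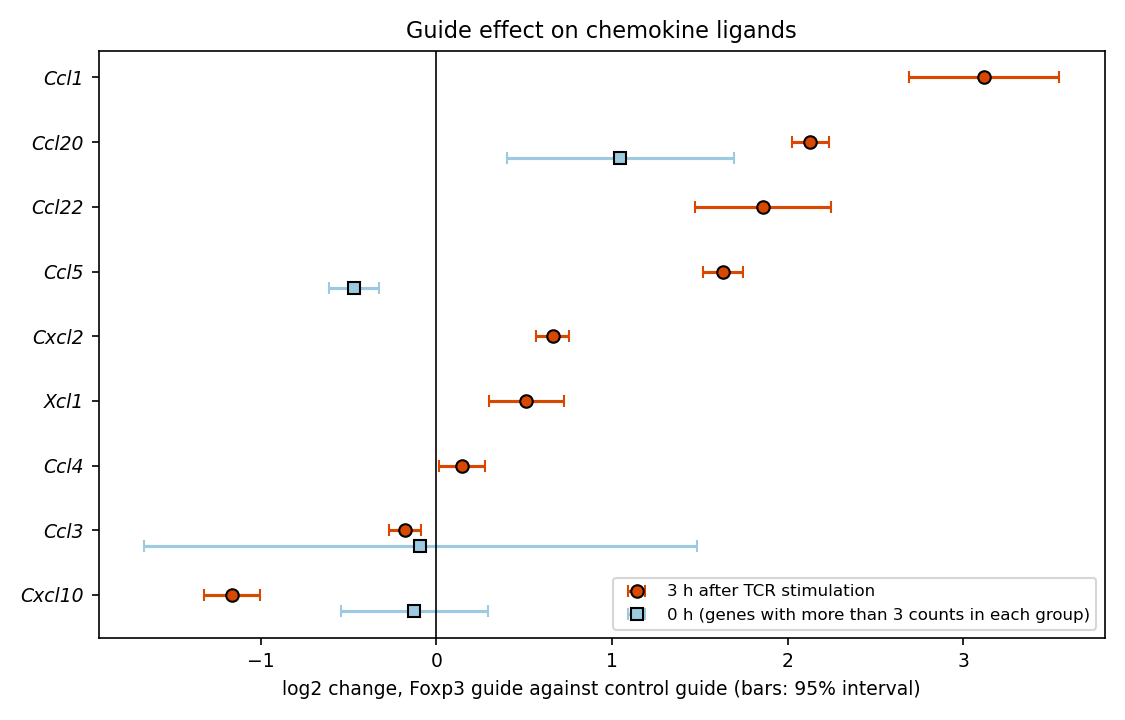
Log2 change of each ligand with the Foxp3 guide against the control guide, with 95% intervals worked back from the edgeR F statistic, at 3 h (circles) and, for the 4 ligands with more than 3 counts in each group, at 0 h (squares). The 3 h values run from 3.12 for Ccl1 to -1.16 for Cxcl10, and Ccl5 stands on opposite sides of 0 at the 2 times.

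Ccl1, the ligand of Ccr8, a receptor known from Treg and type 2 helper cells, showed the largest effect of the guide. It had 0 counts in both control-guide libraries at 0 h and 252 and 270.3 CPM at 3 h, a rise of at least 8164-fold over a floor of 3 counts in the group. Foxp3-guide libraries had 0 and 16 counts at 0 h and 2222 and 2319.5 CPM at 3 h. The stimulated libraries of the 2 guides lay far apart, with means of 261 ± 12.6 and 2271 ± 68.9 CPM (SD, n = 2). The Foxp3 guide thus raised stimulated Ccl1 8.69-fold, a log2 change of 3.12 (SE 0.146, edgeR quasi-likelihood adjusted p = 0.000181). DESeq2 on all 8 libraries gave the same size of change, 3.12, but did not call it (adjusted p = 0.159), while edgeR and DESeq2 restricted to the 4 libraries at 3 h did. By TPM rank among all 55665 genes, Ccl1 stood at 145 in both stimulated control-guide libraries and at 4 in both with the Foxp3 guide.

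The inflammatory CC ligands Ccl3, Ccl4 and Ccl5, which attract T cells and myeloid cells, did not move alike. Ccl3 (MIP-1 alpha) had 4 and 1 counts in control-guide libraries at 0 h and rose to 589 and 621 CPM at 3 h. The fitted log2 change was 13.41, and its direction was fixed by the filter. Its Foxp3-guide values were 2 and 5 counts at 0 h and 521 and 549 CPM at 3 h. Stimulated Ccl3 was slightly lower with the Foxp3 guide, in both libraries, by -0.18 on the log2 scale (SE 0.0436, edgeR adjusted p = 0.00116); the call was not made on log2(TPM+0.1) (limma adjusted p = 0.547).

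Ccl4 (MIP-1 beta), the neighbour of Ccl3, was at 2 and 0 counts at 0 h and at 961 and 1028 CPM at 3 h with the control guide. The counting ratio was 46600 (95% interval 12900 to 384800, counting error only). Under the Foxp3 guide it was at 2 and 9 counts and then at 1054 and 1145 CPM. Stimulated Ccl4 lay a little above the control guide in both libraries, and the change of 0.14 (95% interval 0.014 to 0.275) missed the threshold (edgeR adjusted p = 0.052). It passed with RLE scaling (adjusted p = 0.041) and DESeq2 (adjusted p = 0.00471) and turned to -0.05 on log2(TPM+1), a scale on which the median of all genes was -0.12. Across the 8 libraries log2 CPM of Ccl3 and Ccl4 had a Pearson r of 0.998, given as a description since the libraries share the gap between 0 h and 3 h.

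Ccl5 (RANTES), which also binds Ccr3 and is typical of effector and memory T cells, was the most abundant of the 9 in TPM without stimulation. With the control guide it had 10.01 and 10.13 CPM at 0 h and 13.63 and 14.02 CPM at 3 h, a rise of 0.46 on the log2 scale (SE 0.0665, edgeR adjusted p = 9.63e-07). Under the Foxp3 guide it started lower, at 7.03 and 7.54 CPM, and reached 42.3 and 43.4 CPM, a rise of 2.56 (SE 0.0565, edgeR adjusted p = 5.82e-23). The guide groups did not overlap at either time: Ccl5 was lower with the Foxp3 guide at 0 h by -0.47 (SE 0.0684, edgeR adjusted p = 1.94e-06) and higher at 3 h by 1.63 (SE 0.0553, edgeR adjusted p = 4.62e-18). The rise with the control guide was not seen on the TPM scale. There the control-guide libraries read 53.6 and 53.0 at 0 h and 55.0 and 54.8 at 3 h, and log2(TPM+1) gave a change of 0.04 (limma adjusted p = 0.412). The Foxp3-guide libraries read 29.9 and 32.3 TPM at 0 h and 149.7 and 148.7 TPM at 3 h, so the direction of both guide effects was the same on that scale.

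Xcl1 (lymphotactin), the ligand of Xcr1 on cross-presenting dendritic cells, rose from 0 and 2 counts to 661 and 718 CPM with the control guide, a counting ratio of 32290 (95% interval 8939 to 266600). The Foxp3-guide libraries went from 0 and 9 counts to 954 and 1013 CPM. Both stimulated Foxp3-guide libraries were above both control-guide libraries, by 1.43-fold or 0.51 on the log2 scale (SE 0.0887, edgeR adjusted p = 0.00186). This call was not made by DESeq2 on all 8 libraries (adjusted p = 0.678) or on log2(TPM+1) (limma adjusted p = 0.227), and it was made by DESeq2 on the 4 libraries at 3 h (adjusted p = 4.72e-22).

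Ccl20, the ligand of Ccr6 on Th17 cells, B cells and a part of Treg cells, was higher with the Foxp3 guide at both times. The control-guide libraries had 10 and 9 counts at 0 h (0.223 and 0.184 CPM) and 25.6 and 24.4 CPM at 3 h. The Foxp3-guide libraries had 32 and 27 counts at 0 h (0.448 and 0.393 CPM) and 106 and 113 CPM at 3 h. No library of one guide overlapped the other at either time. The guide effect was 1.05 at 0 h (SE 0.312, edgeR adjusted p = 0.00645) and 2.13 at 3 h, or 4.38-fold (SE 0.0502, edgeR adjusted p = 6.51e-21). The 0 h call rests on few counts and was lost without the second control-guide library (edgeR adjusted p = 0.0768) and in DESeq2 on the 4 libraries at 0 h (adjusted p = 0.191). TCR stimulation raised Ccl20 by 6.93 on the log2 scale for the control guide and by 8.02 for the Foxp3 guide.

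Ccl22, the ligand of Ccr4 that draws in Treg and type 2 helper cells and is best known from dendritic cells, was the least abundant of the 9. The control-guide libraries had 1 and 0 counts at 0 h and 40 and 49 counts at 3 h (0.888 and 1.16 CPM). The Foxp3-guide libraries had 0 counts at 0 h and 176 and 313 counts at 3 h (3.59 and 3.81 CPM). Stimulated Ccl22 was 3.63-fold higher with the Foxp3 guide in non-overlapping libraries, a log2 change of 1.86 (SE 0.186, edgeR adjusted p = 7.65e-09). Stimulation raised it at least 174-fold with the Foxp3 guide, over a floor of 3 counts, and by a counting ratio of 95.5 (95% interval 16.7 to 3814) with the control guide. No fold is given at 0 h, where both groups were under the floor.

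Cxcl2, a neutrophil attractant that acts through Cxcr2, had 0 and 1 counts at 0 h and 71.2 and 76.4 CPM at 3 h with the control guide. Foxp3-guide libraries had 2 and 1 counts and then 116 and 118 CPM. The stimulated groups were apart, with a guide effect of 1.58-fold, 0.66 on the log2 scale (SE 0.0457, edgeR adjusted p = 5.62e-12). Its counts were fractional in the 4 stimulated libraries and whole when summed with those of Cxcl3. Reads shared between these genes were thus divided by the authors' quantification, and the level of Cxcl2 alone is uncertain to that extent.

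Cxcl10, the interferon-induced ligand of Cxcr3 on type 1 helper and CD8 T cells, was the ligand that fell most with the Foxp3 guide. The control-guide libraries had 39 and 31 counts at 0 h (0.871 and 0.632 CPM) and 21.2 and 20.7 CPM at 3 h. The Foxp3-guide libraries had 50 and 46 counts at 0 h (0.700 and 0.669 CPM) and 9.31 and 9.44 CPM at 3 h. The 0 h libraries overlapped (log2 change -0.12, 95% interval -0.545 to 0.296, edgeR adjusted p = 0.652), while at 3 h both Foxp3-guide libraries were below both controls by -1.16 (SE 0.0769, edgeR adjusted p = 2.49e-12), a fall of 2.24-fold. TCR stimulation still raised it with both guides, by 4.81 and 3.77 on the log2 scale.

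For the ligands near absence at 0 h, the guide effect before stimulation was not resolved at this depth. Ccl3 gave -0.09 with a 95% interval of -1.66 to 1.48 (edgeR adjusted p = 0.933). For Ccl4, 11 counts with the Foxp3 guide against 2 gave a ratio of 3.68 (95% counting interval 0.803 to 34.2), and for Xcl1 9 against 2 gave 3.01 (0.623 to 28.6). Most of these counts came from the second Foxp3-guide library at 0 h, which had 16 counts of Ccl1, 9 of Xcl1, 9 of Ccl4 and 5 of Ccl3, where the first had 0, 0, 2 and 2. The 16 counts of Ccl1 correspond to 0.00534% of its counts at 3 h with that guide. For the other low ligands this share was 0.00991% (Ccl3), 0.00754% (Ccl4), 0.00692% (Xcl1), 0.0195% (Cxcl2) and 0 (Ccl22). Whether these few reads came from the 0 h cells was not tested. Without the first of these libraries, Ccl1, Ccl4 and Xcl1 passed the test upward at 0 h, but the group then holds just the library with most of the counts, which is assumed to vary like the other groups. Without the second the fitted change of Xcl1 was -3.37 (edgeR adjusted p = 0.208).

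The response to stimulation itself differed between the guides for 3 of the 9 ligands, higher for Ccl5 and Ccl20 and lower for Cxcl10. Of all tested genes 44.8% passed this interaction test, 17.8% higher and 27% lower with the Foxp3 guide. The TCR effect with the Foxp3 guide exceeded that with the control guide by 2.10 for Ccl5 (SE 0.0885, edgeR adjusted p = 2.1e-15) and by 1.08 for Ccl20 (SE 0.36, edgeR adjusted p = 0.0209). The Cxcl10 effect was smaller by -1.04 (SE 0.216, edgeR adjusted p = 0.000345). Each of the 3 changed by at least 2-fold, which 9.36% of all genes did, 3.33% upward and 6.02% downward. The Ccl20 difference was lost without either control-guide library at 0 h (edgeR adjusted p = 0.18 and 0.063) and without the second Foxp3-guide library at 0 h (edgeR adjusted p = 0.0577), and the Cxcl10 difference on log2(TPM+0.1) (limma adjusted p = 0.104). For Ccl1, Ccl4, Ccl22, Xcl1 and Cxcl2 the 0 h counts were too few: the interval for Ccl22 ran from -0.05 to 8.86 and that for Ccl1 from -15.7 to 10.5. Ccl3, with 5 and 7 counts in the 0 h groups, gave -0.09 (95% interval -1.80 to 1.63).

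**Figure D3:**
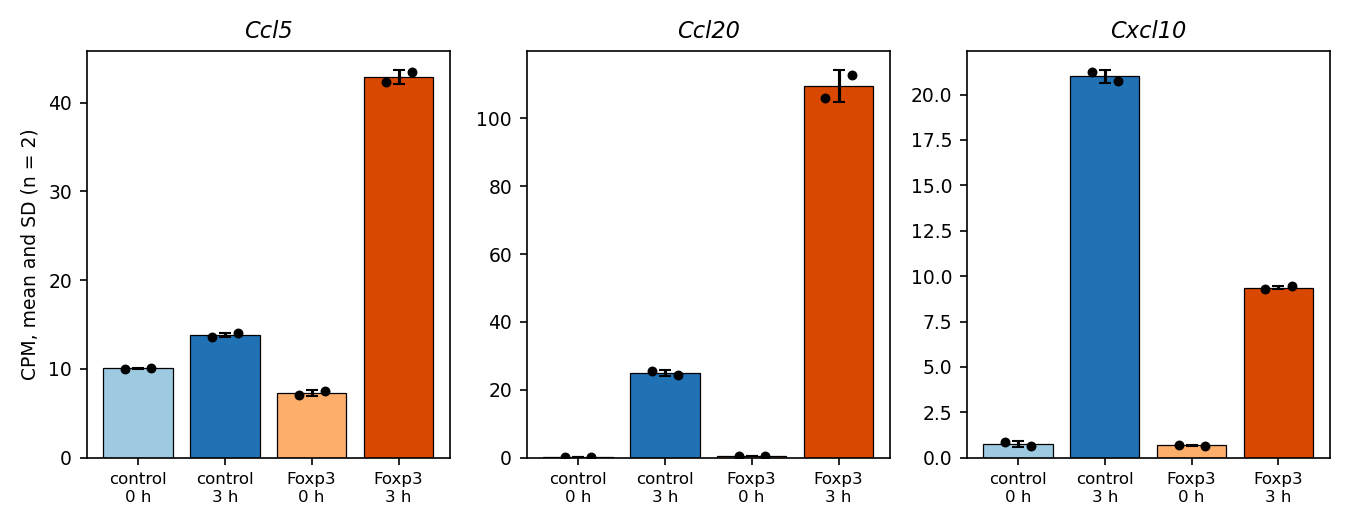
CPM of Ccl5, Ccl20 and Cxcl10 on linear axes; bars are group means, error bars are SD (n = 2) and points are the libraries. Stimulated Ccl5 was 13.8 ± 0.277 CPM with the control guide and 42.9 ± 0.793 CPM with the Foxp3 guide, whereas stimulated Cxcl10 was 21.0 ± 0.350 and 9.37 ± 0.093 CPM.

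The mix of ligand transcripts changed as well as their sum. In TPM, the 9 ligands summed to 57.1 and 54.9 in control-guide libraries at 0 h and to 32.4 and 36.8 with the Foxp3 guide, of which Ccl5 made up 87.8% to 96.5%. After stimulation the sum was 8388 and 8709 TPM with the control guide and 16123 and 16476 TPM with the Foxp3 guide, 0.839% and 0.871% against 1.61% and 1.65% of all TPM. Ccl1 alone went from 1063 and 1098 TPM to 8215 and 8305 TPM, and its share from 12.7% and 12.6% of the sum to 51.0% and 50.4%. The shares of Ccl4 (34.0% and 34.1%, then 17.0% and 17.5%), Xcl1 (33.0% and 33.5%, then 21.8% and 22.0%) and Ccl3 (17.0% and 16.8%, then 6.87% and 6.83%) were lower with the Foxp3 guide. Shares within a fixed sum are tied to each other, so these are descriptions and were not tested.

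**Figure D4:**
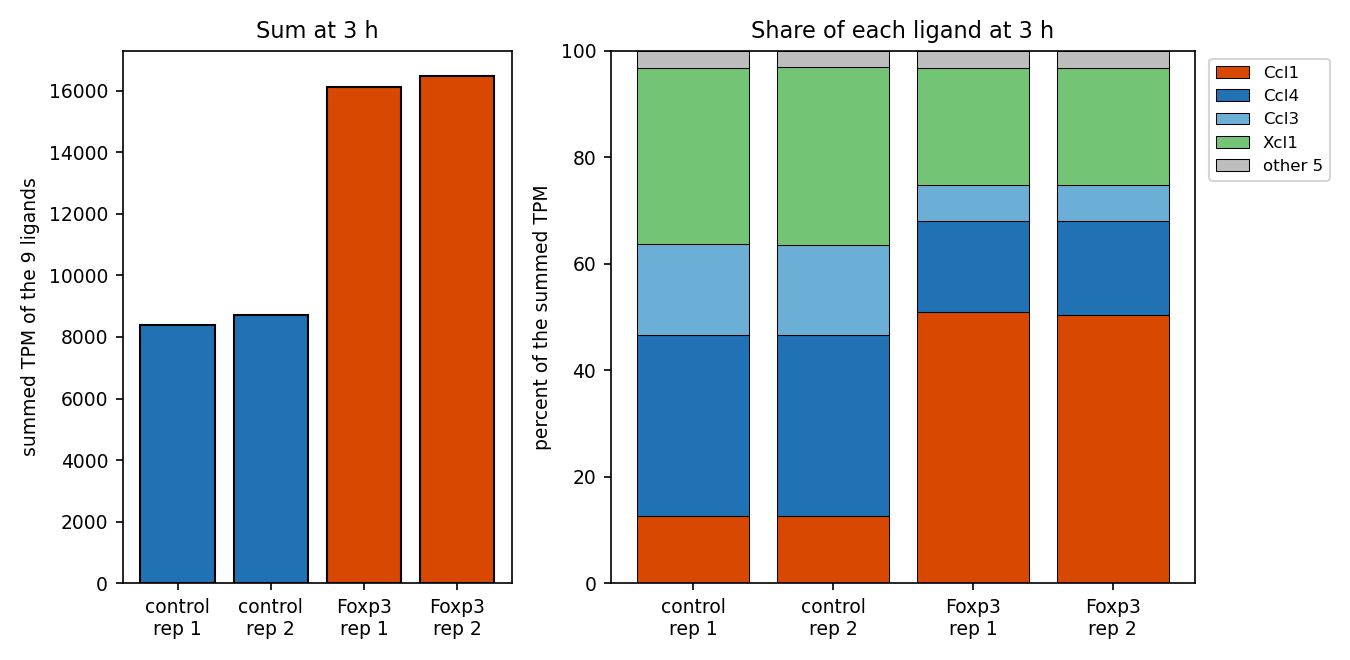
Left, summed TPM of the 9 ligands in the 4 stimulated libraries; right, the percent of that sum taken by Ccl1, Ccl4, Ccl3, Xcl1 and the other 5 ligands. The sums were 8388 and 8709 TPM with the control guide and 16123 and 16476 TPM with the Foxp3 guide, and the Ccl1 segment covers 12.7% and 12.6%, then 51.0% and 50.4%.

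Ordered by TPM at 3 h with the control guide, Ccl4 (2855 and 2967) and Xcl1 (2772 and 2917) came first, and their ranges overlapped although Ccl4 was higher in both libraries. Ccl3 (1426 and 1463), Ccl1 (1063 and 1098) and Cxcl2 (120.0 in both) followed without overlap. Ccl5 (55.0 and 54.8) and Ccl20 (54.8 and 51.4) overlapped, and Cxcl10 (42.8 and 37.4) and Ccl22 (0.61 and 0.78) came last. With the Foxp3 guide the order was Ccl1 (8215 and 8305), Xcl1 (3519 and 3621), Ccl4 (2747 and 2888), Ccl3 (1107 and 1126), Ccl20 (198 and 205), Cxcl2 (168 and 163), Ccl5 (149.7 and 148.7), Cxcl10 (15.9 and 17.5) and Ccl22 (2.15 and 2.20), with no overlap between neighbours. Ccl1 moved from the fourth place to the first and Ccl20 from the seventh to the fifth. At 0 h Ccl5 came first with both guides, then Cxcl10 (2.38 and 1.17 TPM with the control guide, 1.27 and 1.34 TPM with the Foxp3 guide) and Ccl20, and most of the others overlapped near 0.

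The genes whose log2 CPM over the 8 libraries was most like that of a ligand were named by Pearson r. For Ccl1 they were Spry4 (0.9985), an inhibitor of growth factor signalling, and Il2 (0.9981), the T cell growth factor. For Ccl5 they were Ticam1 (0.9984), a Toll-like receptor adaptor, and Lrch1 (0.9982), and for Xcl1 Mfsd2a (0.9986) and Plau (0.9985). For Ccl20 they were Tdg (0.9997) and Mtrex (0.9995), for Cxcl2 Epop and Stip1 (both 0.9999), for Cxcl10 Wsb1 (0.9996) and Atg16l2 (0.9986) and for Ccl22 Rhov (0.9987) and Trmt44 (0.9985). Ccl3 paired with Sar1a and Thoc1 (both 0.9992) and Ccl4 with Josd1 (0.9991) and Mmachc (0.9987). The 8 libraries form 4 groups that share depth and a difference between times, and the values are a description. Among the ligands themselves the lowest r was 0.655, between Ccl5 and Cxcl10.

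The genes next to the ligands on the chromosome differed widely in level. Their counts are given without correction for depth, which was larger in the Foxp3-guide libraries, so they do not compare the guides directly. Ccl9, 42400 bases from Ccl5, had 1 and 0 counts at 0 h and 222 and 199 at 3 h with the control guide, and 0 counts and then 152 and 293 with the Foxp3 guide. Scaled to depth, Ccl9 at 3 h was lower with the Foxp3 guide, at 3.10 and 3.56 against 4.93 and 4.70 CPM (log2 change -0.52, SE 0.134, edgeR adjusted p = 0.00191). Cxcl1, 10755 bases from Cxcl2, had 10 and 6 counts at 3 h with the control guide and 75 and 126 with the Foxp3 guide. Ccl8, next to Ccl1, and Wfdc17, next to Ccl4, had 0 counts in all 8 libraries. Nup54, a nuclear pore gene next to Cxcl10, had 1031 or fewer counts per library at 0 h and 3929 or more at 3 h with the control guide, and 1883 or fewer and 5123 or more with the Foxp3 guide. Mthfd2l, next to Cxcl2, had 206 to 337 counts with the control guide and 130 to 260 with the Foxp3 guide. Tbx19, next to Xcl1, had 58 and 61 counts with the Foxp3 guide at 0 h and at most 1 elsewhere. Heatr9, next to Ccl5, had 5 to 35 counts, and Krtap28-13, Daw1, Dpt, Tmem132e, Rpl9-ps1, Art3 and Pllp had at most 7.

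Of 28 other chemokine ligands, 11 had enough counts to test. At 3 h 7 were higher with the Foxp3 guide, 3 were lower and 1 did not pass, against 61.5% of all tested genes called, 30.7% higher and 30.8% lower. Ccl2, Ccl7, Ccl17 and Cxcl1 passed the filter only through the stimulated Foxp3-guide group, so their place among the 7 was fixed by it. At 0 h 1 was higher, 1 lower and 9 did not pass, against 63.3% of all genes called. Cxcl9, like Cxcl10 an interferon-induced ligand of Cxcr3, went the other way from it: 26 and 27 counts at 3 h with the control guide and 358 and 594 with the Foxp3 guide, a log2 change of 3.58 (SE 0.163, edgeR adjusted p = 4.42e-15). The monocyte attractants Ccl2 (1 count in the control-guide group and 56 in the Foxp3-guide group, ratio 37.3, 95% interval 6.43 to 1499) and Ccl7 (2 and 84 counts, ratio 28.0, 7.51 to 235) were seen almost only with the Foxp3 guide at 3 h. Cxcl1 had a fitted log2 change of 3.05 (SE 0.329). Cx3cl1, 20309 bases from Ccl22 and the membrane-bound ligand of Cx3cr1, was lower with the Foxp3 guide at 0 h, with 9 and 5 counts against 58 and 77 and a log2 change of -3.82 (SE 0.314, edgeR adjusted p = 1.34e-10). At 3 h it was lower by -1.15 (SE 0.199), and its TCR effect was larger by 2.67 with the Foxp3 guide (SE 0.399, edgeR adjusted p = 5.99e-06). The other call at 0 h, Ccl17, rested on 5 counts against 0 (edgeR adjusted p = 0.0466) and was not made with upper-quartile scaling or DESeq2. At 3 h Ccl17 had 7 counts in each control-guide library and 51 and 114 with the Foxp3 guide, a fitted log2 change of 2.93 (SE 0.353). All of these are far below the 9 ligands in sum, at 27.4 to 35.7 TPM over the 28 genes in stimulated libraries.

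A list of 14 receptors held those of the 9 ligands and, as decoy or atypical receptors, Ackr1, Ackr2, Ackr4 and Ccrl2. Of the 14, 8 had enough counts to test, Ccrl2 among them. With the Foxp3 guide 2 were higher, 5 lower and 1 did not pass at 0 h (median -0.46, against 0.02 for all tested genes), where 63.3% of all genes were called, 34.2% higher and 29.1% lower. At 3 h 5 were higher and 3 lower (median 0.67, against -0.01), where 61.5% of all genes were called. Ccr8, the receptor of Ccl1, had 14.5 CPM in both control-guide libraries at 0 h and 50.4 and 52.0 CPM with the Foxp3 guide, a rise of 1.82 (SE 0.0472, edgeR adjusted p = 1.94e-20). At 3 h it stood at 223.5 and 223.7 CPM with the control guide and at 158 and 164 CPM with the Foxp3 guide, so stimulation raised it by 3.94 and by 1.65 on the log2 scale, a difference of -2.29 (SE 0.0595, edgeR adjusted p = 7.39e-19). Ligand and receptor thus changed in opposite directions at 3 h. Ccr6, the receptor of Ccl20, was lower with the Foxp3 guide at both times, at 12.9 and 12.1 against 2.002 and 1.659 CPM at 0 h (log2 change -2.77, SE 0.107) and at 18.0 and 16.3 against 5.41 and 4.61 CPM at 3 h (-1.79, SE 0.0913).

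Ccr1, a receptor of Ccl3 and Ccl5, was lower with the Foxp3 guide at 0 h (0.156 and 0.184 against 0.028 and 0.044 CPM; -2.19, SE 0.575) and higher at 3 h (1.02 and 1.04 against 2.78 CPM in both; 1.43, SE 0.18), and the difference in its TCR effect was 3.62 (SE 0.603, edgeR adjusted p = 2.49e-05). Cxcr3, the receptor of Cxcl9 and Cxcl10, responded more to stimulation with the Foxp3 guide (1.90, SE 0.0537) than with the control guide, a difference of 1.53 (SE 0.0793, edgeR adjusted p = 8.83e-14). Ccr3, a receptor of Ccl5, had a guide effect of -0.06 at 0 h, which did not pass, and of 1.26 at 3 h (SE 0.146), and the difference in its TCR effect was 1.32 (SE 0.222, edgeR adjusted p = 2.78e-05). The scavenging receptor-like Ccrl2 was lower at both times, by -1.12 and -1.18. Xcr1 had at most 6 counts and Cxcr2 at most 1 in any library, so transcripts of the receptors of Xcl1 and Cxcl2 were few in these libraries.

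**Figure D5:**
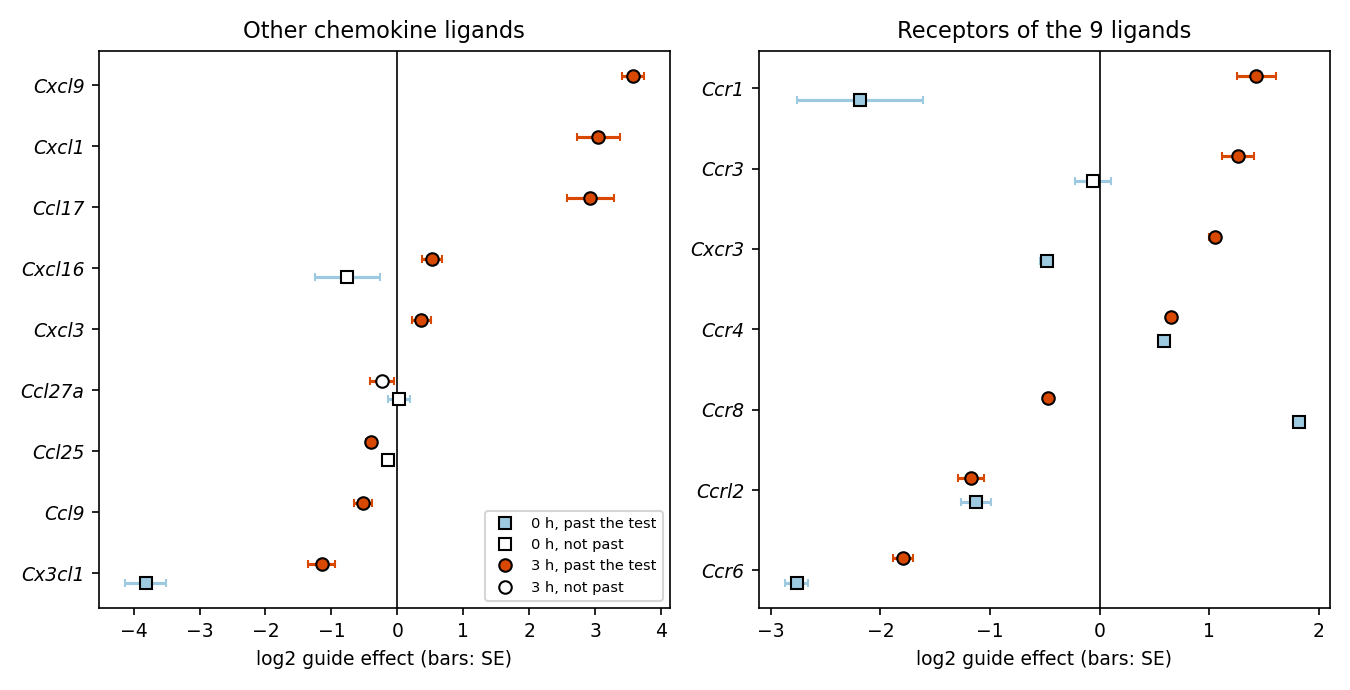
Log2 change with the Foxp3 guide against the control guide for other chemokine ligands (left) and receptors of the 9 ligands (right), at 0 h (squares) and 3 h (circles), with SE bars; open symbols did not pass the test, and a gene is drawn at a time only where each group had more than 3 counts. The right panel shows 7 of the 8 tested receptors, with Ccrl2 among them. Cxcl9 at 3.58 lies far right and Cx3cl1 at -3.82 far left, while Ccr8 is at 1.82 at 0 h and at -0.47 at 3 h.

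Markers of other cells were read beside these results. Of 14 myeloid markers 5 were tested, and at 3 h 3 of these were higher and 2 lower with the Foxp3 guide, where 61.5% of all genes were called. The summed level of the 14 was 8.55 to 9.43 CPM in stimulated Foxp3-guide libraries against 3.22 to 3.84 CPM in the other groups. In TPM these sums overlapped, at 4.02 to 5.17 against 3.01 to 5.12. The rise in CPM lay in Itgam (guide effect 2.26 at 3 h, SE 0.172) and Itgax (3.39, SE 0.259). Adgre1 was also higher with the Foxp3 guide at 3 h (2.12, SE 0.401). It had 40 and 39 counts with that guide at 0 h already, against 37 and 48 at 3 h, and passed the filter only through Foxp3-guide libraries. Flt3, lower by -2.18 (SE 0.567), passed it only through the stimulated control-guide group. Lyz2 had at most 6 counts, Csf1r at most 4 and Siglech 0 in every library. NK markers summed to 17.6 to 19.0 CPM in stimulated Foxp3-guide libraries and 24.5 to 24.7 CPM in stimulated control-guide libraries. In TPM these sums overlapped, at 15.59 to 17.79 and 15.61 to 15.87, and single NK markers went both ways. At 3 h Klrk1 (1 and 0 counts, then 14 and 26) and Gzma (60 and 64, then 324 and 464) were higher with the Foxp3 guide, and Eomes (-1.21, SE 0.104) and Prf1 (-0.83, SE 0.0856) were lower. At 0 h 4 of the 5 tested NK markers were higher, where 34.2% of all genes were called higher and 29.1% lower. Among the 4 was Klrb1c (2 and 1 counts, then 79 and 68), and Prf1 was lower. Klrk1 and Klrb1c passed the filter only through Foxp3-guide libraries. CD8 T cell markers summed in stimulated libraries to 8.10 to 8.71 CPM with the Foxp3 guide and 6.23 to 6.42 CPM with the control guide. Summed B cell markers were 33.5 to 34.4 CPM there with the Foxp3 guide against 97.5 to 99.8 CPM, with Pax5 at no more than 1 count in any library. What part these other cells had in the ligand levels was not tested.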

How the data were processed

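RNA-seq was analysed from 8 libraries of cultured mouse nTreg cells, grouped by guide and time from the labels. The submitters' processing notes name Trim Galore 0.6.3 for trimming, STAR 2.7.9a for alignment to mm10 (GRCm38) and RSEM 1.3.1 for quantification; the annotation release is not given in the sources used here. The authors deposited expected counts, rounded here for the models, and TPM values, used here to compare genes and as an alternative scale. Each column matched 1 library. GENCODE M21 held 55180 of the 55665 gene identifiers with their version and 55480 without it.

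Of these genes, 16642 passed filterByExpr. TMM-scaled counts of all 8 libraries entered a robust quasi-likelihood fit (edgeR 4.0.16, limma 3.58.1, R 4.3.3) with 1 mean per group and 4 residual degrees of freedom (median prior 19.1, common biological coefficient of variation 3.41%). P-values were adjusted over all tested genes by Benjamini-Hochberg and called below 0.05. Values are given per library or as mean ± SD (n = 2). SE and fitted 95% intervals of log2 changes were worked back from the F statistic of the test. Where a group had 0 counts the fold is a bound against a floor of 3 counts for the whole group. For 1 to 3 counts the ratio has an exact 95% interval (conditional Clopper-Pearson), and both cover counting error only. Libraries of a group differed beyond sampling noise (chi-square per gene from 4.55 to 7.47), so none was treated as a duplicate. The fit was tested on simulated data.

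The ligands, gene lists and tests were chosen with earlier results of these data known. All 9 ligands are named, as are Foxp3, the direct neighbours of the ligands, the 2 genes most like each ligand and, of each further list, up to 4 called genes with the largest change per comparison, with some of their values in other comparisons. Values of 1 receptor and 1 B cell marker in the lists are not reported here. Untested receptors, and marker genes near 0 counts, were named after their counts were seen. The alternatives were scaling by RLE or upper quartile, DESeq2 1.42.0, limma-trend on log2(TPM+1) or log2(TPM+0.1), leaving out the filter, a minimum of 1 CPM in at least 2 libraries, a fit of just the 4 libraries compared, a block for the replicate number, and each library left out in turn. A 2-fold minimum and DESeq2 on the 4 libraries compared were added after the data were seen. Python 3.11.15 and matplotlib 3.10.9 drew the figures.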

Additional observations from a re-analysis of the deposited data

Results flagged for a closer look

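The effect of the Foxp3 guide differed between 0 h and 3 h for 3 of the 9 ligands, by the edgeR interaction test on the 2 libraries of each group, which 44.8% of all tested genes passed. For Ccl5 the difference was 2.10 on the log2 scale (adjusted p = 2.1e-15), from a lower level than the control guide at 0 h to a higher one at 3 h, with no overlap of libraries at either time. For Ccl20 it was 1.08 (adjusted p = 0.0209), between 2 effects in the same direction. For Cxcl10 it was -1.04 (adjusted p = 0.000345), where the libraries overlapped at 0 h and lay apart at 3 h. Groups of 2 libraries allow no check for an outlying library.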

How the results depend on the processing

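All 9 ligands passed the test upward with TCR stimulation under every alternative run, except Ccl5 with the control guide, which missed it on both TPM scales and did not reach a 2-fold minimum. Of the log2 changes recomputed for single ligands, 730 kept their direction and side of the threshold, 17 moved past it, 14 no longer passed and 17 changed sign. At 0 h 2 ligands were called. That count was 1 to 5 when single libraries were left out, 1 with a 2-fold minimum and 1 with DESeq2 on the 4 libraries compared, where 3 ligands were tested. At 3 h 8 were called, 5 on log2(TPM+0.1) and 5 with a 2-fold minimum. The difference between TCR effects was called for 3, and for 6 on log2(TPM+1). The NFAT core was in 4 of 7 promoter windows, and in 1 on the plus strand alone. On the TPM scales Ccl4 at 3 h was -0.047 with either pseudocount. The fitted difference between TCR effects turned to 2.41, 0.14 and 0.45 for Ccl1, Xcl1 and Cxcl2 on log2(TPM+1), and to 1.17 and 0.39 for Ccl1 and Cxcl2 on log2(TPM+0.1). Leaving out single libraries moved the 0 h change of Ccl3 from -0.87 to 1.22 (above 0 without the first control-guide or first Foxp3-guide library at 0 h). That of Cxcl10 ran from -0.34 to 0.12 (above 0 without the first control-guide library at 0 h) and that of Xcl1 from -3.37 to 4.94 (below 0 without the second Foxp3-guide library at 0 h). The difference between TCR effects ran from -3.57 to 3.12 for Ccl1, -1.39 to 0.69 for Ccl3, -4.43 to 3.89 for Xcl1 and -2.79 to 0.59 for Cxcl2, above 0 without the second Foxp3-guide library (Ccl1, Ccl3, Xcl1), the second control-guide library (Ccl3), or the first of either guide (Cxcl2), all at 0 h. These fitted values depend on the prior count where a group holds 3 or fewer counts. The cause of these changes was not tested. Without the library that held its only counts, Ccl1 at 0 h has no value, nor has Ccl22 without the first control-guide library.

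Replicate numbers are shared between the groups, but the deviations of same-numbered libraries correlated at -0.23 to 0.285, so the numbers were not taken as pairs. With replicate number as a block, 2 ligands were called at 0 h, 9 at 3 h, where Ccl4 passed (0.14, edgeR adjusted p = 0.0206), 9 with stimulation under each guide and 3 for the difference between TCR effects. Depth limits what can be read at 0 h, where 3 counts correspond to 0.032 CPM in the control-guide group and 0.0214 CPM in the Foxp3-guide group.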
